A study of Drosophila melanogaster with 18 samples.

Results

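The sites described here are positions at which transcription started within fragments of bacterial artificial chromosomes (BACs) in STAP-seq, and for which the genome-wide screen lists no matching site. In STAP-seq short pieces of genomic DNA are cloned into a plasmid that carries an enhancer or none, and the 5′ ends of transcripts that begin inside the pieces are sequenced. The assay thus reads, base by base, where a piece of DNA can start transcription outside its own chromosome. A BAC carries a large cloned insert of genomic DNA, and a library made from a set of BACs covers a part of the genome that a genome-wide library also holds. The members were selected on listed positions alone, that is, on the distance between the lists: a BAC site was kept where no genome-wide site lay within 5 bp on the same chromosome and strand. Of 753 BAC sites, 292 met this rule, which is 38.8% of the BAC list (Wilson 95% interval 35.4 to 42.3), and of the 13971 sites of both lists together they are a small part. The other 461 BAC sites had a match and are called shared sites.

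Both lists come from S2 cells of Drosophila melanogaster, a cell line derived from late embryos with traits of blood cells. The BAC list is named in the labels of 3 samples with the zfh1 enhancer and 1 without an enhancer, and the genome-wide list in those of 2 samples with the zfh1 enhancer and 2 without one. The gene zfh1 encodes a zinc finger and homeodomain transcription factor. Genome-wide fragments came from embryos of the sequenced y; cn bw sp strain, fragment sizes were about 100 to 250 bp in all libraries, and per the labels' protocols the screens used 1 type of vector, with or without the enhancer. Each list is 1 set of single-base positions with a strand and a serial number, without levels, replicates or depth, so neither the strength of a site nor its response to the enhancer has a value here, and S2 markers could not be checked. The 10 samples with other enhancers or in ovarian somatic cells were not analysed here. Tests below run over sites or regions of these 2 lists, and their p-values and intervals do not measure the spread between repeated screens.

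RNA polymerase II starts transcription at core promoters, short stretches around the start site that general transcription factors recognise, and an enhancer raises the output of a core promoter from a distance. Initiation can occur at several nearby bases of 1 promoter. It can also occur on both strands, in divergent pairs that point away from each other or in convergent pairs that point towards each other. A site absent from a list is one that was not listed, which differs from a fragment that cannot start transcription.

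Most BAC-only sites lay more than 1000 bp from any site of the genome-wide list. The nearest genome-wide site on the same strand was a median of 5370.5 bp away (quartiles 1701.5 and 11760.5 bp, from 7 to 55030 bp), and for 243 of the 292 sites it was more than 1000 bp away. Only 33 sites had one at 6 to 250 bp, a distance at which both could lie on the same fragment. Counting both strands, the median distance was 2631.5 bp and 82 sites had a genome-wide site within 1000 bp. The rule sets these same-strand distances, so they describe the sites and are not tested. On the opposite strand the median distance was 5998.5 bp for BAC-only and 5178 bp for shared sites. The BAC regions defined below held 656 genome-wide sites over 4.903 Mb, so distances of some kb are not particular to BAC-only sites. Within 10 kb on either strand, BAC-only sites had a median of 2 genome-wide sites and shared sites a median of 3, their own match left out. No genome-wide site lay in that window around 39 BAC-only sites (13.4%) and around 45 shared sites (9.76%), a difference that was not tested.

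**Figure D1:**
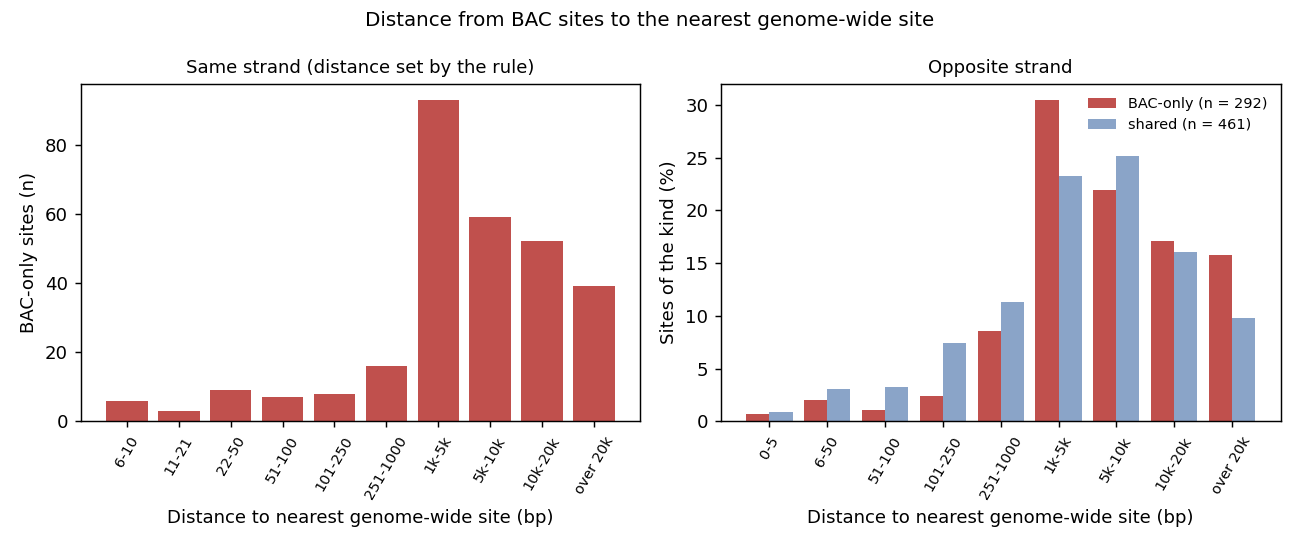
Distances from BAC sites to the nearest genome-wide site in bp, on bins of unequal width. On the left, bars count BAC-only sites by distance on the same strand, where the highest bar is 93 sites at 1001 to 5000 bp. On the right, bars give the percent of BAC-only and of shared sites by distance on the opposite strand, where 2.40% of BAC-only and 7.38% of shared sites fell at 101 to 250 bp.

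The 3 BAC-only sites farthest from a genome-wide site on either strand show how empty the genome-wide list was there (positions are 1-based in dm3). The plus-strand site at 345350 on 2L had its nearest genome-wide site 24105 bp away, the minus-strand site at 19096703 on 3R had it 22935 bp away, and the plus-strand site at 11604773 on 2L had it 22795 bp away. Their serial numbers in the BAC list were 549, 712 and 540. The site on 3R had another BAC-only site 1719 bp away on the same strand, so this stretch without genome-wide sites held more than 1 BAC-only site.

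At the other end, 18 BAC-only sites lay 6 to 50 bp from a genome-wide site on the same strand. The 6 sites just outside the limit were 7 to 10 bp away. They were on 3L at 15581990 (plus strand, 7 bp) and 5746076 (plus, 10 bp), on 2L at 5009715 (minus, 9 bp) and 5052758 (minus, 10 bp), and on X at 5796028 (plus, 9 bp) and 9544805 (minus, 10 bp). Their serial numbers ran from 170 to 560 with a median of 324.5. Just inside the limit, 15 shared sites were 4 bp and 4 shared sites 5 bp from their match, with serial numbers from 1 to 615 and a median of 103. The 4 at 5 bp were on 3L at 7753639 (plus) and 7828552 (minus) and on X at 5794903 (plus) and 8020646 (minus). Of all shared sites 406 matched at the same base and 55 at 1 to 5 bp, so the limit of 5 bp separated sites with offsets of similar size on either side of it.

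The 18 close sites can be split by whether another BAC site matched the same genome-wide site. For 11 of them, no other BAC site matched the genome-wide site in question, and 9 of these 11 were 7 to 17 bp and the other two 22 and 27 bp from it. One of them, on 3L at 15581990, also had a shared start 25 bp away on the same strand, at 15581965. In 8 of these 11 the BAC start lay upstream along the direction of transcription, and in 3 downstream. For the other 7, all at 22 to 50 bp, the genome-wide site was also matched by another BAC site, so the BAC list held a further start beside a shared one. An example is X, where the BAC-only plus-strand site at 9623658 (number 752) lay 26 bp upstream of the shared site at 9623684 (number 122). The smallest distance between same-strand sites of the BAC list was 22 bp, and a match needs 5 bp or less. A genome-wide site only a few bp from a BAC-only site therefore could not be matched by another BAC site. The spacing of the list and the rule thus largely set this split by distance, which is no result about the sites.

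BAC-only sites carried high serial numbers. Their numbers had a median of 542.5 (quartiles 389.8 and 649.2, from 18 to 753), against a median of 263 for shared sites (quartiles 119 and 441, from 1 to 750), so the ranges overlap almost fully while the middles are apart. No source at hand says how the numbers were assigned, and they cannot be read as strength. The list was divided into 10 bins of 75 or 76 consecutive numbers. In the bin with the lowest numbers (1 to 76) 1 of 76 sites was BAC-only, or 1.32% (0.233 to 7.08). BAC-only sites numbered 9 of 75 at 77 to 151, 16 of 75 at 152 to 226, 15 of 75 at 227 to 301 and 27 of 76 at 302 to 377. They made up 42.7% at 378 to 452, 49.3% at 453 to 527, 65.3% at 528 to 602, 66.7% at 603 to 677 and 73.7% (62.8 to 82.3) at 678 to 753. The share was thus larger in each bin than in the one before except at 227 to 301, where 1 site fewer was BAC-only.

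**Figure D2:**
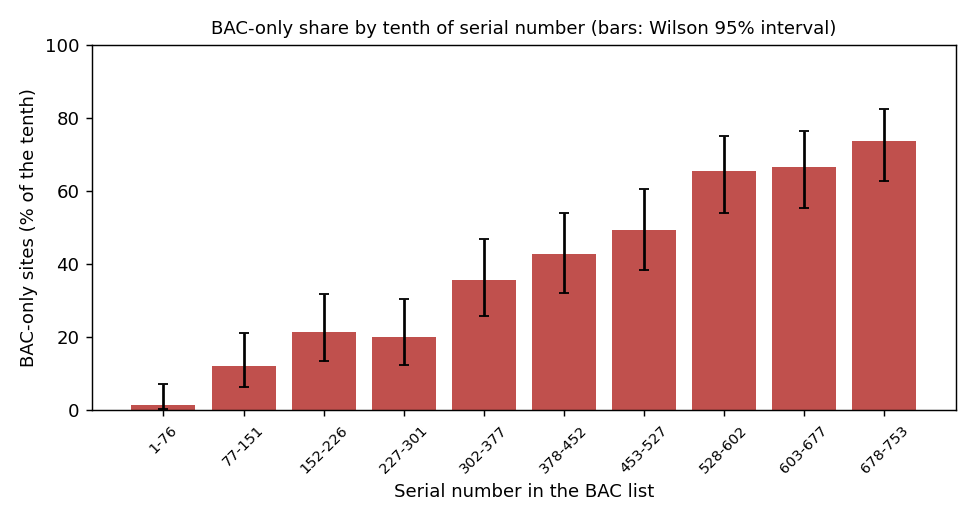
Bars give the percent of BAC sites that were BAC-only in each of 10 bins of the BAC serial numbers (75 or 76 sites each), with Wilson 95% intervals. The share was 1.32% at numbers 1 to 76 and 73.7% at 678 to 753.

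The difference in numbers appeared in each region that could be compared. BACs have no coordinates in the labels, so BAC sites were joined into a region wherever neighbours were at most 60 kb apart, which gave 34 regions. In the 29 regions with at least 3 sites of each kind, the median number was higher for BAC-only than for shared sites in 29 of 29 (exact sign test over regions, two-sided p = 3.725e-09, adjusted p = 2.98e-08 by Benjamini-Hochberg over 8 tests). The test was chosen with the sharing of sites by serial number in these data already known, so its p-value is only descriptive. The difference of medians ranged from 79.5 on 2R (3469545 to 3623124), where BAC-only sites had a median of 399 and shared sites 319.5, to 501.5 on 3R (8185736 to 8331514), where BAC-only sites had 608.5 and shared sites 107. With the 5 arms as units all 5 differed the same way, but the smallest p that 5 units allow is 0.0625.

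**Figure D3:**
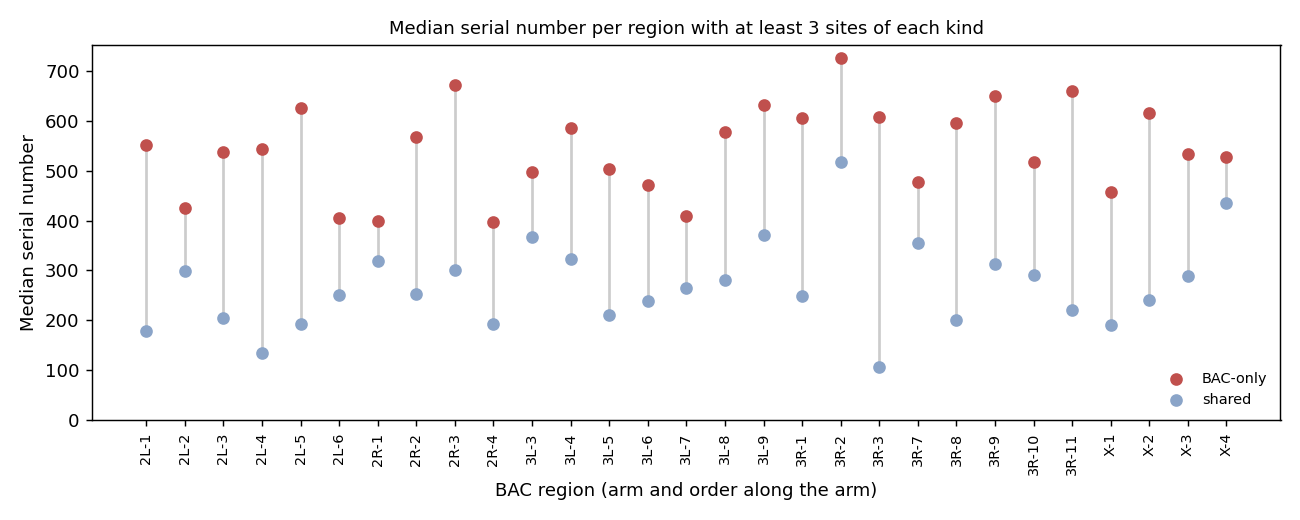
Points give the median BAC serial number of BAC-only and of shared sites in each of the 29 regions with at least 3 sites of each kind, joined by a grey line. Regions are named by arm and order along it. The BAC-only point is above the shared point in all 29.

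The numbers also ran in stretches within which they followed chromosome and start position sorted as text, digit by digit. This differs from genomic order: on 2L, number 639 lay at 19548518 and number 640 at 342070. The last 4 stretches of at least 40 sites showed the same pattern. They held 47, 69, 84 and 129 sites, of which 20 (42.6%), 36 (52.2%), 57 (67.9%) and 91 (70.5%) were BAC-only. Together they held 204 of the 292 BAC-only sites, 69.9% of them. Outside these 4 stretches 88 of 424 sites were BAC-only, or 20.8%. Within a stretch the number only restates the place in this text order. Of the 5 BAC-only sites with the highest numbers, 4 (747, 749, 751 and 752) lay on X at 8029342, 8056076, 9566340 and 9623658. Number 753 lay on 3L at 19829691.

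The BAC-only sites with the lowest numbers stood among sites that nearly all had a match. Only 2 of the sites numbered up to 100 and 19 of those up to 200 were BAC-only. Number 18, on the minus strand of 3L at 5745236, was the lowest. Its nearest genome-wide sites were 1302 bp away on the same strand and 622 bp on the opposite strand, and its nearest BAC site, 840 bp away on the plus strand, was BAC-only too. Number 80, on the minus strand of X at 5664594, lay 216 bp downstream of a shared site with number 177, and its nearest genome-wide site was also 216 bp away. The BAC-only site thus had the lower number of this pair.

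The other 8 of the 10 lowest-numbered sites were 1177 to 19095 bp from a genome-wide site of either strand. They were number 114 on 2R at 3485415 (plus), 125 on X at 15698406 (plus), 127 on 3L at 19784173 (minus), 130 on 3L at 3765759 (minus), 131 on 2L at 19441296 (minus), 138 on 3L at 7797771 (minus), 141 on 3R at 8191471 (minus) and 147 on X at 9534655 (minus). Number 130 was the most distant and had no genome-wide site within 10 kb. Number 138 had BAC-only neighbours 38 and 237 bp away on the same strand, at 7797809 (number 590) and 7798008 (number 278). These 3 formed the only group of 3 BAC-only sites with gaps of at most 250 bp, and their nearest same-strand genome-wide sites were 3132 to 3369 bp away. A further 16 groups held 2 BAC-only sites each, and 257 BAC-only sites had no other BAC-only site at that distance. Shared sites were left out of this grouping, so some of the 257, such as number 80, had a shared site that near.

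BAC-only sites were found on every arm of the BAC list, at unequal shares. On 2L 87 of 179 sites were BAC-only, 48.6% (41.4 to 55.9), on X 39 of 96, 40.6% (31.4 to 50.6), and on 3L 56 of 146, 38.4% (30.9 to 46.5). On 3R 77 of 215 were, 35.8% (29.7 to 42.4), and on 2R 33 of 117, 28.2% (20.8 to 36.95). The share of 2L depended on 1 region: without 341433 to 524662 it was 41.9% (33.7 to 50.5), from 54 of 129 sites. These shares are what the rule counts and were not tested.

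Single regions differed more than the arms. BAC-only sites occurred in 31 of the 34 regions. The median over all 34 regions was 7.5 BAC-only sites, and the 3 regions with the most held 72 of the 292. These were 2L, 341433 to 524662, with 33 BAC-only and 17 shared sites, 2L, 4945728 to 5320796, with 21 and 30, and 3R, 8185736 to 8331514, with 18 and 17. The first had 18.0 BAC-only sites per 100 kb and the third 12.35, against 5.96 over all regions. The second was the longest region (375.1 kb) and had 5.60 per 100 kb, with a BAC-only share of 41.2%. Among the 30 regions with at least 10 sites the BAC-only share had a median of 38.4%, with quartiles of 29.9% and 45.98%. It was highest at 2L, 341433 to 524662, with 66.0% (52.2 to 77.6), and at 2L, 14906266 to 15070929, with 61.5% (35.5 to 82.3). It was lowest at 3L, 1163227 to 1211196, with 9.09% (1.62 to 37.7), from 1 of 11 sites, and at 3R, 25497385 to 25659124, with 15.4% (6.15 to 33.5), from 4 of 26.

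**Figure D4:**
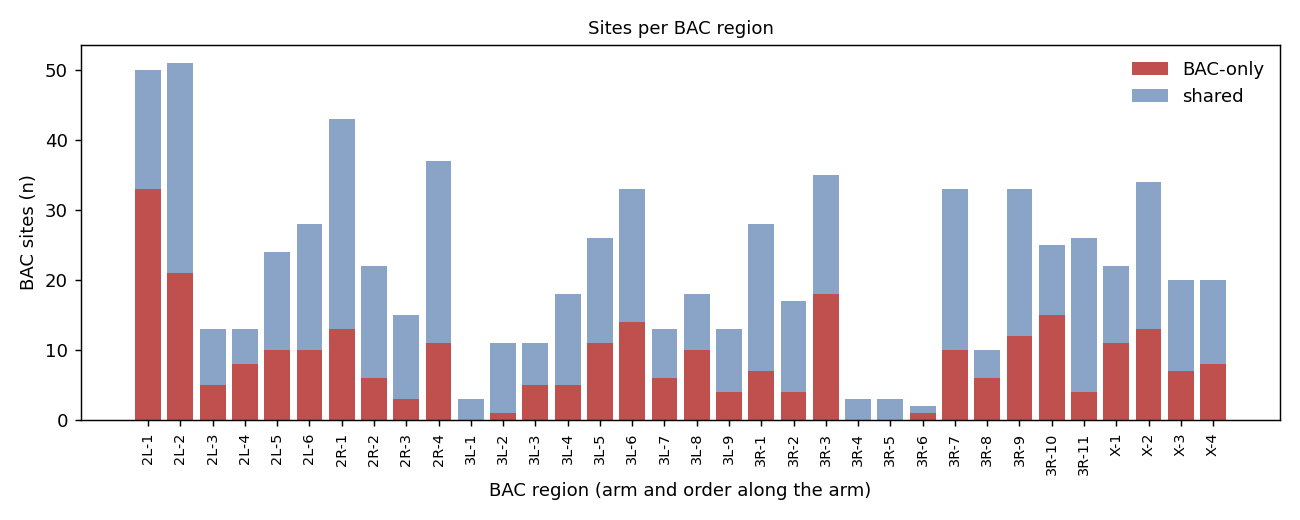
Stacked bars give the number of BAC-only and shared sites in each of the 34 BAC regions, named by arm and order along it. The first region of 2L has 33 BAC-only of 50 sites, and 3 regions (3 sites each) have none.

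The converse, genome-wide sites without a BAC match, was less frequent in these regions. Of 656 genome-wide sites within them, 196 had no BAC site within 5 bp on the same strand, or 29.9%. BAC-only sites outnumbered such sites in 20 regions, were fewer in 11 and equal in 3. Regions are bounded by BAC sites, so a genome-wide site farther out on the same insert is not counted, and the balance cannot be read as a rate of agreement. Of the 68 region ends, 31 were BAC-only sites (45.6%), against 261 of the 685 sites away from the ends (38.1%), which was not tested.

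Strand use showed no departure from balance past the threshold. Of the BAC-only sites 136 were on the plus and 156 on the minus strand, 46.6% plus (40.9 to 52.3; exact binomial p = 0.266, adjusted p = 0.355). Of the shared sites 230 were on the plus and 231 on the minus strand, 49.9% plus (Fisher's exact p for the difference 0.411, adjusted p = 0.469). By arm, 2R had 19 plus and 14 minus BAC-only sites, and the other arms had more on the minus strand, from 41 and 46 on 2L to 17 and 22 on X.

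BAC-only sites mostly stood apart from other BAC sites, as did shared sites. No BAC site on either strand lay within 1000 bp of 193 BAC-only sites, 66.1% (60.5 to 71.3), and of 265 shared sites, 57.5% (52.9 to 61.9). For 179 BAC-only sites, 61.3%, there was neither a BAC nor a genome-wide site within 1000 bp. The rule enters this count: each shared site has a genome-wide site within 5 bp, so shared sites give no baseline for it. On the same strand within 100 bp, 30 BAC-only sites (10.3%, 7.29 to 14.3) and 57 shared sites (12.4%, 9.67 to 15.7) had a BAC neighbour. The share was higher for BAC-only sites in 7 regions and lower in 13, with 9 regions tied (exact sign test p = 0.263, adjusted p = 0.355). A difference in same-strand neighbours, both kinds pooled, was thus not detectable at 100 bp. Split by kind, a shared neighbour within 1000 bp on the same strand was present for 35 BAC-only sites, 11.99% (8.75 to 16.2), and 94 shared sites, 20.4% (16.96 to 24.3). A BAC-only neighbour within 250 bp was present for 25 BAC-only sites, 8.56% (5.87 to 12.3), and 20 shared sites, 4.34% (2.83 to 6.61). Within 1000 bp a BAC-only neighbour was present for 9.59% of BAC-only and 9.11% of shared sites. These splits by kind were not tested. In 3 bins of the serial numbers, the same-strand share was 12.9% of BAC-only and 10.9% of shared sites at numbers 1 to 251, 6.52% and 14.5% at 252 to 502, and 11.8% and 12.2% at 503 to 753.

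**Figure D5:**
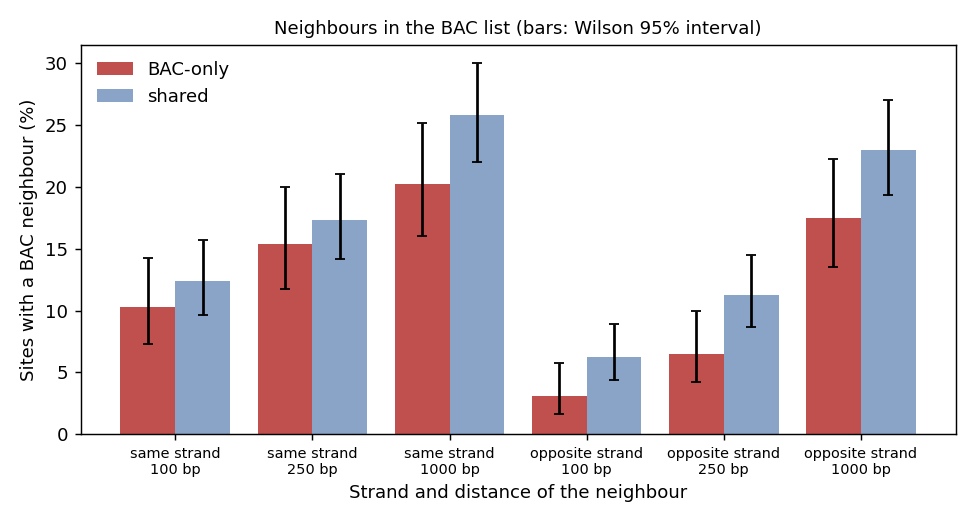
Bars give the percent of BAC-only and of shared sites with another BAC site within 100, 250 or 1000 bp, on the same or on the opposite strand, with Wilson 95% intervals. The BAC-only bar is the lower one in all 6 pairs, and the intervals of each pair overlap.

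Starts on the opposite strand were listed less often near BAC-only than near shared sites, and the test over regions passed the threshold at 250 bp but not at 100 or 1000 bp. A genome-wide site on the opposite strand lay within 250 bp of 18 BAC-only sites, 6.16% (3.93 to 9.53), and of 67 shared sites, 14.5% (11.6 to 18.0). The share was higher for BAC-only sites in 4 regions and lower in 17, with 8 tied (exact sign test p = 0.0072, adjusted p = 0.0288). The rule chose members by this same genome-wide list, and each shared site lies where that list has a same-strand site. The 2 kinds are therefore not alike on this measure, and the p-value is only descriptive. Both opposite-strand tests were added after the values had been seen. Within 100 bp the shares were 3.77% (2.12 to 6.62) of BAC-only and 7.16% (5.14 to 9.88) of shared sites, with 5 regions higher and 10 lower (exact p = 0.302). Within 1000 bp they were 14.7% (11.1 to 19.3) of BAC-only and 25.8% (22.03 to 30.0) of shared sites, with 10 regions higher and 14 lower (exact p = 0.541). The share over all sites was thus lower for BAC-only sites at all 3 distances. Without the highest-numbered 25% of BAC sites 6 regions were higher and 7 lower at 250 bp (exact p = 1), and with a match at the same base 6 were higher and 15 lower (exact p = 0.0784), so the call was lost there too. In the same 3 bins of serial numbers, 6.45% of BAC-only and 13.6% of shared sites had such a partner at 1 to 251, 7.61% and 18.9% at 252 to 502, and 5.33% and 8.54% at 503 to 753. In the BAC list itself an opposite-strand neighbour within 250 bp was present for 19 BAC-only sites (6.51%) and 52 shared sites (11.3%), with 4 regions higher and 13 lower (exact sign test p = 0.049, adjusted p = 0.131), which did not pass the threshold. Within 5 bp the shares were alike, with an opposite-strand genome-wide site at 2 BAC-only sites (0.685%) and 4 shared sites (0.868%). The 2 BAC-only sites were on X at 9510316 (minus, 2 bp) and on 2R at 20161377 (minus, 5 bp).

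The neighbours that BAC-only sites did have were of both kinds. Same-strand pairs 22 to 250 bp apart comprised 14 pairs of BAC-only sites, which involved 25 sites, and 22 pairs of a BAC-only with a shared site. In 18 of those 22 mixed pairs the BAC-only site had the higher serial number, as on X at 8010177 (BAC-only, number 745), 44 bp from the shared site at 8010133 (number 119). The same order held over the whole list (medians 542.5 and 263), so it is not particular to close pairs. The exceptions include 2R, where the BAC-only site at 20161377 (number 214) lay 59 bp from the shared site at 20161436 (number 329). On 2L a shared minus-strand site at 16402204 (number 187) had BAC-only sites on both sides, at 16402150 (number 632, downstream) and at 16402441 (number 545, upstream).

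No side of a shared site was preferred. For 22 BAC-only sites the nearest shared site on the same strand was 22 to 250 bp away, and 11 lay downstream and 11 upstream of it along the direction of transcription (Wilson interval of the downstream share 30.7 to 69.3%; exact binomial p = 1). With so few sites the interval admits a strong preference either way.

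Opposite-strand pairs with at least 1 BAC-only site were few, 10 divergent and 4 convergent at 22 to 250 bp (71.4% divergent, 45.4 to 88.3; exact binomial p = 0.18, adjusted p = 0.355). Mixed pairs made up 8 of the divergent and 1 of the convergent ones, and pairs of BAC-only sites 2 and 3. Pairs of shared sites were 10 divergent and 10 convergent, a difference that was not tested. Some sites, such as number 656 on 2L, belong to more than 1 pair, so the pairs that the test counts are not independent. An example is X, where the BAC-only minus-strand site at 8072787 (number 532) lay 39 bp to the left of a shared plus-strand site at 8072826 (number 99) and 51 bp from a shared site on its own strand at 8072736 (number 240). On 3L, 2 BAC-only sites formed a divergent pair 223 bp apart, at 5648926 (minus, number 586) and 5649149 (plus, number 587).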

How the data were processed

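The lists deposited by the authors give for each site a chromosome, the 0-based and 1-based position of a single base, a serial number in its name, and a strand. The submitters' processing notes name dm3 as the build, Bowtie 0.12.9 and CASAVA 1.9.1, without saying what each tool did. How sites were called, numbered or pooled over replicates: not given in the sources used here. The only gene table belongs to a different build, and therefore genes and sequences are left out.

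Distances, regions (gap above 60 kb), neighbours and pairs were computed with pandas 2.3.3 and numpy 2.4.6 in Python 3.11.15, tests with scipy 1.17.1 and figures with matplotlib 3.10.9, after a check on simulated lists. Regions with at least 3 sites of each kind were the units of exact two-sided sign tests. p-values were adjusted over 8 tests, and the threshold was 0.05. Wilson intervals cover counting error only, and close sites are not independent. The members, rules and tests were chosen with earlier results of these data known, among them the sharing of sites by serial number. Named sites are the 10 lowest-numbered and 5 highest-numbered BAC-only sites, those 6 to 10 bp and 4 to 5 bp from a genome-wide site, the 3 farthest, the group of 3, and regions with most sites or extreme shares (at least 10 sites). Examples of pairs and the 2 BAC-only sites with an opposite-strand genome-wide site within 5 bp were chosen after their values were seen.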

Additional observations from a re-analysis of the deposited data

How the results depend on the processing

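No paired analysis was possible because neither list has per-sample values. Counted at the same base, 347 BAC sites lacked a match, 46.1% instead of 38.8%, and when the 25% of genome-wide sites with the highest numbers were left out 44.6% did, where fewer candidates for a match remain by construction. Without the highest-numbered 25% of BAC sites the share was 29.0%. Limits of 10, 50 and 100 bp, either strand, clusters counted once, leaving out each arm and leaving out the region with the most BAC-only sites gave 35.5% to 40.7%. The higher numbers of BAC-only sites held in 28 of 29 regions at the same base, in 29 of 29 within 50 bp, in 28 of 30 with a region gap of 40 kb and in 20 of 21 without the highest-numbered 25%. With arms as units they held in all 5 (100% of units, exact p = 0.0625). The plus-strand share was 51.8% without the highest-numbered 25%, on the other side of balance and not past the threshold. The downstream share was 52.2% at the same base, 42.9% within 50 bp, 54.3% at 22 to 1000 bp and 52.4% without the region with the most BAC-only sites, none past the threshold. Regions with a higher opposite-strand genome-wide share for BAC-only sites were 33.3% within 100 bp, 41.7% within 1000 bp, 28.6% at the same base (exact p = 0.0784) and 46.15% without the highest-numbered 25%, none past the threshold. The p-value stayed below the threshold with a match within 50 bp (4 of 20 regions, exact sign test p = 0.0118) and with a gap of 100 kb (4 of 21, exact p = 0.0072). It also did without the region with the most BAC-only sites and with a gap of 40 kb (3 of 20 each, exact p = 0.00258). These settings reuse nearly the same sites, and the rule chose members by this same genome-wide list. Their p-values are therefore only descriptive and add no support. The cause was not tested. Depth is unknown, so absence from the genome-wide list sets no upper limit on initiation. Leaving out the region with the most BAC-only sites, the run of numbers in place of the number, and all alternatives for opposite-strand partners were chosen after seeing the data.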
